A study of Mus musculus with 2 samples.

Results

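Peaks called in one library and matched by no called peak of the other are described here, in sorted intestinal effector T cells of control mice and of mice with a T-cell knockout of Zfp362. A peak was counted as one-library when no peak row of the other library overlapped it by 1 base or more. The control library held 10300 such peaks among its 83851 (12.3%), called control-only below. The knockout library held 12198 among its 85738 (14.2%), called knockout-only. Together they were 22498 of 169589 peak rows. The other 73551 control and 73540 knockout peaks overlapped one another and formed 73219 shared regions.

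Control mice were Zfp362flox/flox by their genotype label, although the sample title reads Zfp362+/+. Knockout mice were CD4creZfp362flox/flox, so by the genotype labels both carried the floxed allele and only the knockout carried CD4cre, a Cre transgene driven by Cd4 regulatory sequence. Mice were 26 to 33 weeks old. The sort gate was CD4+CD44+CD62L-, negative for F4/80, CD45R, CD11c and CD8a. Cells of colon and small intestine were pooled, and RNA and open chromatin were measured in the same nuclei (10x Multiome). There was 1 library per genotype, so a difference between genotypes and a difference between 2 libraries cannot be told apart, and no p-value is given.

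Transposase cuts DNA where nucleosomes leave it accessible, and a peak caller marks stretches with more cuts than their surroundings. Promoters of active genes are the strongest such sites, while enhancers, which lie in introns and between genes, are weaker and differ more between cell types. A call is a threshold: a stretch near the threshold can be called in one library and missed in another. Zfp362 encodes a C2H2 zinc-finger protein. Cd4 encodes the coreceptor that binds MHC class II on helper T cells, and its expression is set by an upstream enhancer and by a silencer in the first intron.

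A peak absent from a table has no row there, so the level of a one-library peak in the other library was not measured. The size line of each matrix equalled its number of feature rows (116136 control, 118023 knockout) and of entries, so both tables were read whole. That check cannot show whether a peak was left out before the tables were written. The counts of a one-library peak are therefore compared between classes of nuclei within its own library. Nuclei with at least 1 UMI of Cd3d, Cd3e or Cd3g, the invariant chains of the T-cell receptor complex, are called Cd3-positive. Those with none are called Cd3-negative. Levels are peak counts per 1000000 counts in shared peaks of the same class (peak CPM). After filtering, 4176 control and 2346 knockout nuclei were kept, of which 1707 (40.9%) and 962 (41.0%) were Cd3-negative. The median nucleus had 6566 (control) and 9865.5 peak counts (knockout). Median UMIs were 2167 and 2930 in Cd3-positive and 1852 and 1992 in Cd3-negative nuclei, and 11 barcodes occurred in both libraries. Summed over 12 T-cell markers, RNA was 5395 CPM in Cd3-positive and 1741 in Cd3-negative control nuclei, and 5318 and 1952 in the knockout. Cd3d, Cd3e and Cd3g are among the 12 and are 0 in Cd3-negative nuclei by definition. Each other marker was higher in Cd3-positive nuclei in both libraries, although Cd4 was nearly level in the control (259 and 255 CPM). The sum over 10 innate lymphoid markers had the opposite order, 2348 and 5006 in the control and 2465 and 4839 in the knockout. Gata3 alone among them was higher in Cd3-positive nuclei. B-cell, myeloid and epithelial marker sums lay between 5.08 and 67.2 CPM in every class, and stromal or endothelial ones between 139 and 182. Pecam1, which lymphocytes also express, made up 139 to 179 CPM of the latter, and none of Col1a1, Col1a2, Pdgfra and Cdh5 exceeded 4.89. Of Cd3-negative nuclei, 62.0% (control) and 64.8% (knockout) lay in joint expression clusters with low Cd3 RNA, and the others in clusters where Cd3 RNA was higher.

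Sequences are shown for 7 promoters that lay wholly inside a one-library peak: the strongest isolated ones, and those of the T-cell genes Cd247 and Il4. Each is the RefSeq window from 250 bases before to 50 after the gene start (mouse GRCm38.p6, the mm10 assembly), written 5′ to 3′ on the gene's strand. Capitals mark matches to 12 transcription-factor motifs, searched on both strands; a match is a description of the letters and not a measured site. Cbx5 (chr15:103239803-103240102, minus strand) and Hnrnpa1 (chr15:103240147-103240446, plus strand) are transcribed away from each other and share 1 control-only peak. Dis3l (chr9:64340724-64341023, minus) and Cd247 (chr1:165788431-165788730, plus) lie in other control-only peaks. Rap2a (chr14:120478211-120478510, plus), Inafm1 (chr7:16273643-16273942, minus) and Il4 (chr11:53618616-53618915, minus) lie in knockout-only peaks.
Cbx5: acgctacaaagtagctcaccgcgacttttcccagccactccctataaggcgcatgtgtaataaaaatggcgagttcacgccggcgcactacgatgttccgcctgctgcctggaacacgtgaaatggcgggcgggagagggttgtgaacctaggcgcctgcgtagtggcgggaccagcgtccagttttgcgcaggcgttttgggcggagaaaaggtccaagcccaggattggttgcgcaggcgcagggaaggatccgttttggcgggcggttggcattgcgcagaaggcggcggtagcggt
Hnrnpa1: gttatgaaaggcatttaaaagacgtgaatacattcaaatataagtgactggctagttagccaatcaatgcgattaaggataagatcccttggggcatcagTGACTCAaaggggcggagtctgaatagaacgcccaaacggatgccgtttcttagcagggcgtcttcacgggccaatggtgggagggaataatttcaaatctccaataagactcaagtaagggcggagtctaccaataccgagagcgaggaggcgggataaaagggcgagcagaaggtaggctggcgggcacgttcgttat
Dis3l: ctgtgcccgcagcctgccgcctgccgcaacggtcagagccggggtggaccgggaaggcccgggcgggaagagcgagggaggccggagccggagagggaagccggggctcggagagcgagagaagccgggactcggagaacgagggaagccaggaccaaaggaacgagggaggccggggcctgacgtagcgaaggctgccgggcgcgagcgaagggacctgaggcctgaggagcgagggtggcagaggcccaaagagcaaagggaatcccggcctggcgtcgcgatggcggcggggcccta
Cd247: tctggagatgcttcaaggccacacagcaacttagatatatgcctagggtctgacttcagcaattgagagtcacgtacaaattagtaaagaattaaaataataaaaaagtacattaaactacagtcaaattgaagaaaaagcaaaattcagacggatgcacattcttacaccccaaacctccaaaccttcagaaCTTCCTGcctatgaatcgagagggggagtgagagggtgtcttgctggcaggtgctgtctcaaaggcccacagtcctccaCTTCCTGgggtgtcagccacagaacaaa
Rap2a: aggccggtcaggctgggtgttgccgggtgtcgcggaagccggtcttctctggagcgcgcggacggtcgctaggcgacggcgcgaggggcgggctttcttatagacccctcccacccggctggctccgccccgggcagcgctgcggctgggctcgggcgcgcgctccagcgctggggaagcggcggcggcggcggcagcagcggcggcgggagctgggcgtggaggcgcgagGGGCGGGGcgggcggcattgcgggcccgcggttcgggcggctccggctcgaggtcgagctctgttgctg
Inafm1: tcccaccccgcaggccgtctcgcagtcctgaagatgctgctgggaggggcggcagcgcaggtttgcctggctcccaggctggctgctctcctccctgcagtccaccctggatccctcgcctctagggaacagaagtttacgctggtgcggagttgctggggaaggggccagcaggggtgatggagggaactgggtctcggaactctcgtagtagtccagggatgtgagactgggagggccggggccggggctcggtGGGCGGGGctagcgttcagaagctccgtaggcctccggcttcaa
Il4: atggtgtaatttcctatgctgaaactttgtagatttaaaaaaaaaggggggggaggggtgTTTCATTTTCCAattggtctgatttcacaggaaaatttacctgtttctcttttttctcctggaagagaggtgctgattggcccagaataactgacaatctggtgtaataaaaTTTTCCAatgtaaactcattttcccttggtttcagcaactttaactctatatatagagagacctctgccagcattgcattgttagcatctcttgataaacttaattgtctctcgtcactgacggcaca
In the Hnrnpa1 window the capitals are an AP-1 match (TGANTCA), in Cd247 a pair of ETS matches (CAGGAAG, read on the other strand), and in Rap2a and Inafm1 an SP/KLF match (GGGCGGGG). In Il4, whose promoter is a classical target of NFAT in activated T cells, they are NFAT matches (TGGAAAA), of which the upstream one overlaps an IRF match (AANTGAAA), all read on the other strand. The Cbx5 and Dis3l windows held none of the 12. GC content ran from 38.0% in Il4 and 43.7% in Cd247 to 72.0% in Dis3l and 77.7% in Rap2a.

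Most one-library peaks were weak. Their median was 22 fragments (control-only) and 23 (knockout-only), against 82 and 93 for shared peaks of the same libraries. On the peak CPM scale the medians were 1.33 and 1.31, against 5.14 and 5.28. They made up 12.3% and 14.2% of the peaks but 1.89% and 2.12% of the peak counts. At least 100 fragments were found in 327 control-only (3.17%) and 393 knockout-only peaks (3.22%), against 44.0% and 47.6% of shared peaks. The tail was long all the same: the strongest control-only peak had 1631 fragments and the strongest knockout-only peak 1884.

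**Figure D1:**
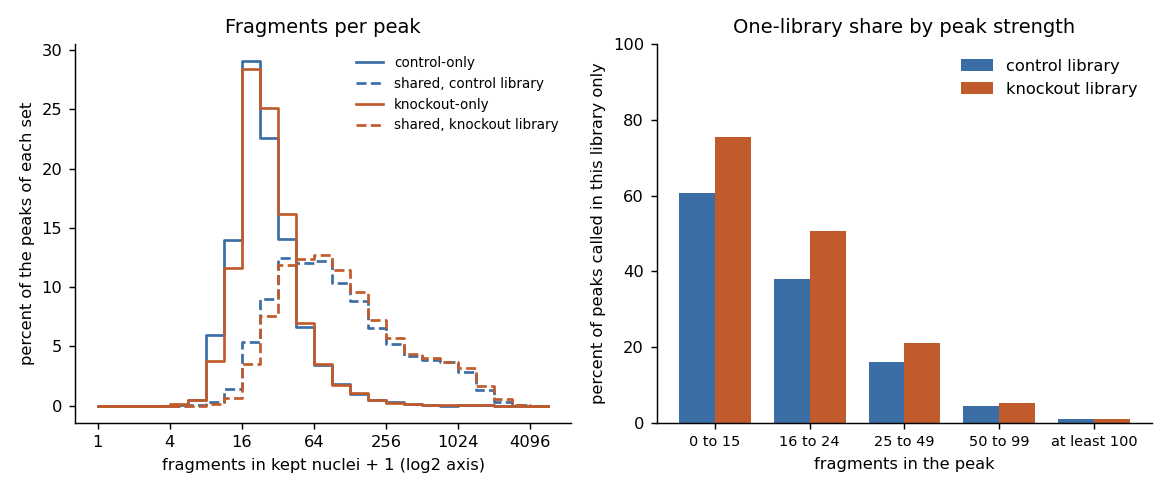
Left, share of each set of peaks (y axis, percent) by fragments per peak in kept nuclei (x axis, log2), for one-library (solid) and shared peaks (dashed) of the control (blue) and knockout (orange) library. Right, percent of the peaks of a library in each fragment class that were called in that library alone; the bars fall from 60.6% (control) and 75.5% (knockout) at up to 15 fragments to 1.00% and 1.11% at 100 or more.

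The share of one-library calls fell steadily with strength. Of peaks with up to 15 fragments, 60.6% of the control and 75.5% of the knockout ones were one-library. At 25 to 49 fragments the shares were 15.99% and 21.2%, and at 100 or more they were 1.00% and 1.11%. In every fragment class the knockout library, which has more counts per nucleus and fewer nuclei, had the higher share; the part of depth in that order was not tested. Widths differed little: the median was 856 bases (range 237 to 1642) for control-only and 863 bases (249 to 1762) for knockout-only peaks, against 890 for shared peaks of either library.

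A peak of the other library was often close by. The median distance was 3008 bases from a control-only peak to the nearest knockout peak and 4194 bases from a knockout-only peak to the nearest control peak. Within 300 bases lay 955 control-only (9.27%) and 948 knockout-only peaks (7.77%), and beyond 5000 bases 3816 (37.0%) and 5584 (45.8%). At the edge of the rule, 25 control-only and 34 knockout-only peaks missed a peak of the other library by at most 10 bases, with median fragments of 28 and 49. On the other side, 25 control and 18 knockout peaks counted as shared although at most 10 of their bases overlapped, with medians of 35 and 29.5.

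Strong one-library peaks were closer to the other library's peaks than weak ones. Among those with at least 100 fragments, 134 of 327 control-only (41.0%) and 154 of 393 knockout-only peaks (39.2%) lay within 300 bases of a peak of the other library. Among weaker ones the shares were 8.23% and 6.73%. The same held for peaks of their own library. Another such peak lay within 300 bases of 43.1% and 39.4% of the stronger ones, against 9.31% and 8.07% of the weaker. The neighbour in the other library was in most cases itself a shared peak. Of all those within 300 bases of a peak of the other library, 807 of 955 control-only and 799 of 948 knockout-only had a shared peak as that neighbour. The knockout-only peak at Ppm1b, a protein phosphatase gene, had 1027 fragments in 374 bases (chr17:84956937-84957310) and lay 71 bases from a control peak of 1900 fragments. The control-only peak at Babam2, a subunit gene of a DNA-repair complex, had 678 fragments in 314 bases (chr5:31697720-31698033) and lay 88 bases from a knockout peak of 1453 fragments. Far from any peak of the other library (over 5000 bases), 16 control-only and 19 knockout-only peaks reached 100 fragments, and 7 and 9 of them were at promoters.

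**Figure D2:**
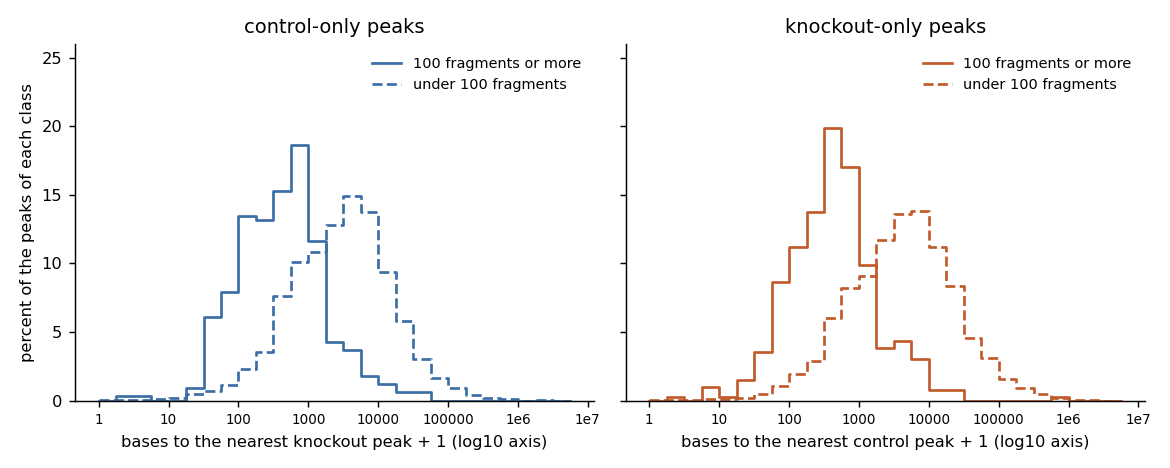
Percent of control-only (left) and knockout-only peaks (right) by bases to the nearest peak of the other library (x axis, log10), for peaks with 100 fragments or more (solid) and fewer (dashed). The solid lines sit to the left: 41.0% and 39.2% of the stronger peaks lay within 300 bases, against 8.23% and 6.73% of the weaker.

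In 145 places a control-only and a knockout-only peak stood within 300 bases of each other without touching, and in 6 of them both had at least 100 fragments. These 6 were found after the values were seen. The strongest pair lay 2368 bases outside Itpr1, an intracellular calcium-channel gene, where a control-only peak of 469 fragments (chr6:108553477-108553992) and a knockout-only peak of 478 (chr6:108552986-108553438) were 38 bases apart. At the promoter of Izumo1r, which encodes the folate receptor FR4 of regulatory T cells, the control-only peak (chr9:14903735-14904350, 143 fragments) and the knockout-only peak (chr9:14903146-14903692, 119 fragments) were 42 bases apart. Both leaned to Cd3-positive nuclei, at 11.2 against 3.22 peak CPM in the control and 7.73 against 1.17 in the knockout. The other 4 pairs were in Rreb1, Rbpms2, Arhgef2 and Maml2. In such pairs both libraries had open chromatin side by side, and the called intervals did not overlap.

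One-library peaks lay less often at promoters than shared peaks and more often in introns. Within 1 kb of an annotated gene start were 9.08% of control-only (exact binomial 95% interval 8.53 to 9.65) and 9.08% of knockout-only peaks (8.58 to 9.61), against 23.3% of shared peaks. Introns held 45.7% and 44.1% against 35.0%, exons 11.5% and 12.7% against 11.8%, and intergenic sequence 33.7% and 34.1% against 29.9%. Position went with strength. Among one-library peaks of at least 100 fragments, 51.7% of the control-only and 44.8% of the knockout-only ones were at promoters, against 42.0% and 39.8% of shared peaks of that strength.

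They were spread over the chromosomes. Leaving out chromosome 18, which was not analysed by chromosome here, chromosome Y and unplaced sequences, control-only peaks made up 10.7% to 13.8% of a chromosome's peaks and knockout-only peaks 12.3% to 16.1%, with the highest knockout share on chromosome 6. Genes that held the most of them were very long. Lpp, which encodes a focal-adhesion protein, spans 599072 bases. Of its 68 control peaks 17 were control-only, and of its 58 knockout peaks 7 were knockout-only. Its RNA was 263 CPM (control) and 324 (knockout). In Fgfr2, a growth-factor receptor gene with 2960900 annotated bases, they were 16 of 128 and 24 of 134. Over all peaks the shares were 12.3% and 14.2%. The other control-only leaders were Rad51b (15 of 68 and 8 of 61), Dscam (14 of 41 and 9 of 36) and Inpp4b (13 of 77 and 7 of 70). The other knockout-only leaders were Gm37240 (11 of 51 and 13 of 54) and Pde4d (7 of 35 and 12 of 40). Foxp1 had 11 of 75 and 11 of 76, and Prkca 7 of 41 and 11 of 45. The median of these peaks was 16 to 32 fragments in every gene named.

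Windows of 2000000 bases, looked at after the other values were known, showed a few places where one set prevailed among the 949 windows with at least 15 peaks in each library. The widest difference was on chromosome 10 from 106000001 to 108000000, where 10 of 25 knockout peaks and 0 of 15 control peaks were one-library, most of them in or near Gm29685 and Otogl, with 4 to 39 fragments. On chromosome 6 from 130000001 to 132000000, which holds Klra (Ly49) receptor genes of natural killer cells, 10 of 25 knockout peaks were knockout-only and 1 of 16 control peaks control-only. Of those 10, 4 lay 4117 to 10724 bases from Klra8, Klra9, Klra7 and Klra3, with 15 to 27 fragments each. The 1 control-only peak, of 21 fragments, was also nearest to Klra3. On chromosome 8 from 108000001 to 110000000, around the transcription-factor gene Zfhx3, 14 of 52 knockout peaks and 1 of 39 control peaks were one-library. The widest difference the other way was on chromosome 13 from 82000001 to 84000000, with 8 of 31 control and 1 of 25 knockout peaks. Of these 8, 5 lay in Mef2c, a transcription-factor gene, and 3 in C130071C03Rik, with 11 to 62 fragments. The same direction held on chromosome 14 from 100000001 to 102000000, around Klf12 and Tbc1d4, with 14 of 45 control and 4 of 35 knockout peaks. These extremes were picked from 949 windows.

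As whole sets, one-library peaks differed by small amounts between Cd3-positive and Cd3-negative nuclei. Summed over control-only peaks there were on average 153 counts per Cd3-positive and 126 per Cd3-negative nucleus, and over knockout-only peaks 373 and 223. As a share of all peak counts this was 1.87% and 1.93% (control) and 2.08% and 2.23% (knockout). Median counts of a nucleus over all peaks were close in the classes, unlike these means: 6512 and 6718 in the control and 9890 and 9861.5 in the knockout. The log2 ratio of Cd3-positive over Cd3-negative peak CPM was -0.05 (exact 95% interval -0.06 to -0.04) for control-only and -0.11 (-0.11 to -0.09) for knockout-only peaks. Intervals here and below cover counting error alone, and counts of one nucleus are not independent molecules of a replicate. At a matched strength of 25 to 49 fragments the ratio was -0.09 in control-only against -0.17 in shared control peaks, and -0.12 against -0.17 in the knockout library. At 100 fragments or more the order was not the same: control-only peaks were at 0.03 (0.0031 to 0.05) and shared ones at 0.02, while knockout-only peaks were at -0.06 (-0.09 to -0.04) and shared ones at 0.02.

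Few of the stronger members differed by over 2-fold between the classes. Of 327 control-only peaks with at least 100 fragments, 29 were past 2-fold higher in Cd3-positive nuclei, where 7.18% of all control peaks of that strength were. Another 18 were past 2-fold higher in Cd3-negative nuclei, against 9.32%. Of 393 knockout-only peaks, 27 were higher in Cd3-positive (all peaks 6.78%) and 39 in Cd3-negative nuclei (all peaks 8.31%). As shares these are 8.87% and 5.50% of control-only and 6.87% and 9.92% of knockout-only peaks. Each is within a few points of its background. Classes taken from the joint expression clusters instead raised these counts to 56 and 36 of 327 control-only peaks, beside 13.8% and 12.7% of all peaks, and to 45 and 59 of 393 knockout-only peaks, beside 11.9% and 11.3%. Leaving out nuclei above 2 times the median UMI count left fewer peaks with 100 fragments. Of 181 control-only peaks, 12 (6.63%) were then higher in Cd3-positive and another 12 (6.63%) in Cd3-negative nuclei, beside 6.65% and 9.24% of all peaks. Of 112 knockout-only peaks, 4 (3.57%) and 15 (13.4%) were, beside 4.2% and 7.5% of all peaks.

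Members that leaned most to Cd3-positive nuclei lay at genes of T cells among others. In the control library these were peaks at Acp5, the tartrate-resistant acid phosphatase gene (9.61 against 1.65 peak CPM), in an exon of S1pr1 (9.51 against 1.65), in Zfp362, at Izumo1r and in A630001G21Rik. The log2 ratios ran from 1.70 to 2.502. These peaks, and those of the next paragraph, were picked by this ratio, so it is given as a description. In the knockout library they were at Izumo1r, in an exon of Ikzf3, which encodes the lymphoid factor Aiolos (7.86 against 1.28), at the promoter of Cd3d (9.46 against 2.35), in Gm1123 and near Dusp4, with log2 ratios of 1.83 to 2.66. Cd3d is one of the 3 genes whose RNA defines the classes.

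Members that leaned most to Cd3-negative nuclei were near Nfam1, an immunoreceptor adaptor gene (3.17 against 13.6 peak CPM), in Tpst2 (3.27 against 14.0), in Col17a1, near Adgrg5 and at Espn in the control library. Their log2 ratios were -1.52 to -2.10. In the knockout library they were at Slc44a1, a choline-transporter gene (3.13 against 11.3), at the promoter of the potassium-channel gene Kcnk1 (4.36 against 15.4), near Gm27211, at the promoter of Bcl11a, a C2H2 factor of B and progenitor cells (4.07 against 13.4), and in Cmip. Their log2 ratios were -1.64 to -1.85. Kcnk1 RNA followed the same order in both libraries, at 16.4 CPM in Cd3-positive and 93.1 in Cd3-negative control nuclei, and 18.6 and 81.4 in the knockout. Bcl11a RNA was sparse, with 16 control and 7 knockout UMIs in all.

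**Figure D3:**
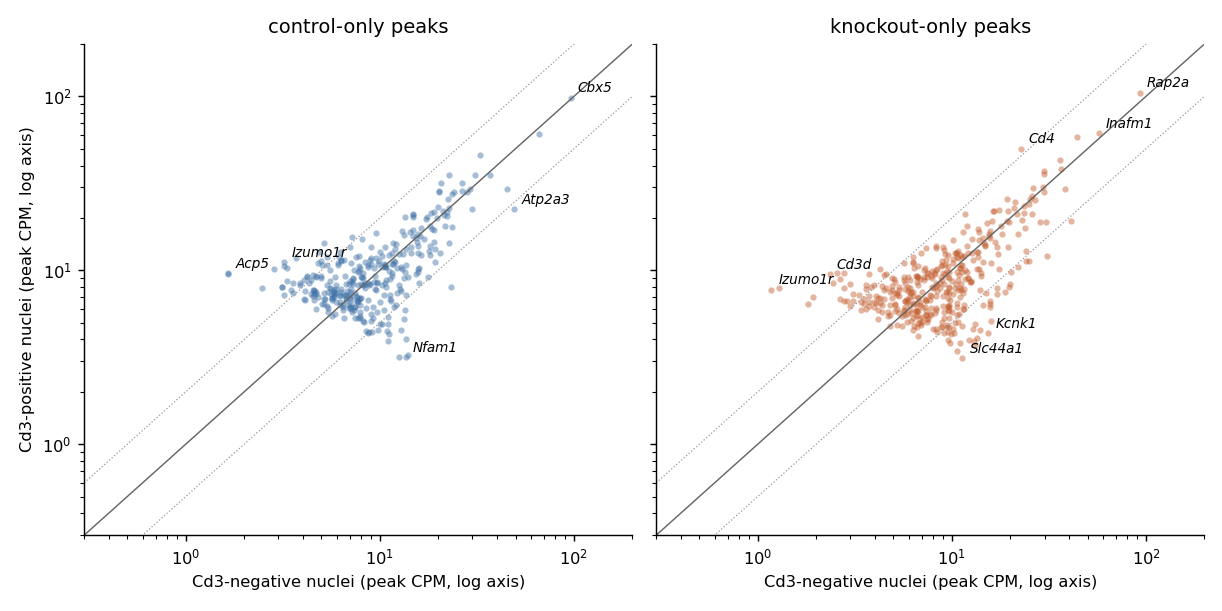
Level in Cd3-positive (y axis) against Cd3-negative nuclei (x axis), both in peak CPM on log axes, for each of the 327 control-only (left) and 393 knockout-only peaks (right) with at least 100 fragments. The solid line marks equal levels and the dotted lines a 2-fold difference; most points lie between the dotted lines, with Acp5 and Izumo1r above and Nfam1, Slc44a1 and Kcnk1 below.

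The strongest members more than 1000 bases from any peak of the other library included several promoters with nearly level values in both classes. The control-only peak between Cbx5, which encodes heterochromatin protein HP1-alpha, and Hnrnpa1, which encodes an RNA-binding splicing protein, had 1631 fragments (chr15:103239776-103240446). It was at 98.3 peak CPM in Cd3-positive and 96.0 in Cd3-negative nuclei, a log2 ratio of 0.03 (-0.14 to 0.15), and 29.3% of kept nuclei had a count in it. The nearest knockout peak was 2135 bases away and had 34 fragments. At the Dis3l promoter, a gene of the cytoplasmic RNA exosome, the control-only peak had 625 fragments (chr9:64340588-64341349), with 35.2 and 37.1 peak CPM, and the nearest knockout peak was 5748 bases away.

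Knockout-only peaks included promoters of the same size. The peak over the Rap2a promoter, a Ras-family GTPase gene, had 1884 fragments (chr14:120477983-120478521), with 105 peak CPM in Cd3-positive and 92.7 in Cd3-negative nuclei (log2 0.18, 0.01 to 0.32), and 45.3% of kept nuclei had a count in it. The nearest control peak lay 7986 bases away and had 19 fragments. At Inafm1 the knockout-only peak had 1088 fragments (chr7:16273309-16274128), with 61.2 and 57.2 peak CPM, and the nearest control peak was 9628 bases away. Of the 10 strongest members in each set, 8 control-only and 8 knockout-only peaks were at promoters by the 1 kb rule. An exception was an intergenic control-only peak 6820 bases from Atp2a3, a calcium-pump gene (chr11:72953379-72954349, 515 fragments), which was at 22.5 peak CPM in Cd3-positive and 49.2 in Cd3-negative nuclei, a log2 ratio of -1.13 (-1.39 to -0.88).

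RNA of the genes at these promoters was detected in the library without the peak. RNA values below are CPM over all kept nuclei, and ratios are knockout over control with exact 95% intervals of the counts. Cbx5 was at 22.2 CPM (control) and 21.7 (knockout), with a ratio of -0.03 (-0.30 to 0.25). Hnrnpa1 was at 191 and 190, a ratio of -0.01 (-0.10 to 0.08). Both intervals exclude a 1.5-fold change, although the promoter had no peak row in the knockout table. Dis3l was at 9.18 and 12.4 CPM (log2 0.44, 0.04 to 0.84), higher in the library without the peak. Rap2a, with its peak in the knockout alone, was at 11.3 and 10.5 (-0.11, -0.51 to 0.29). Inafm1 was at 3.34 and 5.36, from 36 and 50 UMIs (0.68, 0.04 to 1.34).

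Other promoters far from the other library's peaks were named after their values were seen. Ecpas, a proteasome adaptor gene, had a control-only promoter peak of 412 fragments that was 12853 bases from a knockout peak, and its RNA was 129 and 132 CPM (log2 0.03, -0.09 to 0.14). Among knockout-only promoters, Rasd1 had 425 fragments and a gap of 16252 bases, T2 had 383 and 12600, and Cnn3 had 217 and 15218. Their RNA log2 ratios were -0.40 (-1.12 to 0.29), 0.17 (-0.55 to 0.88) and 0.10 (-0.49 to 0.68), each from 30 to 54 UMIs a library. Pfn1, the profilin gene, had a control-only peak of 700 fragments at its start, 116 bases from a knockout peak of 302. Its RNA was 433 CPM (control) and 309 (knockout), a log2 ratio of -0.48 (-0.55 to -0.42).

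**Figure D4:**
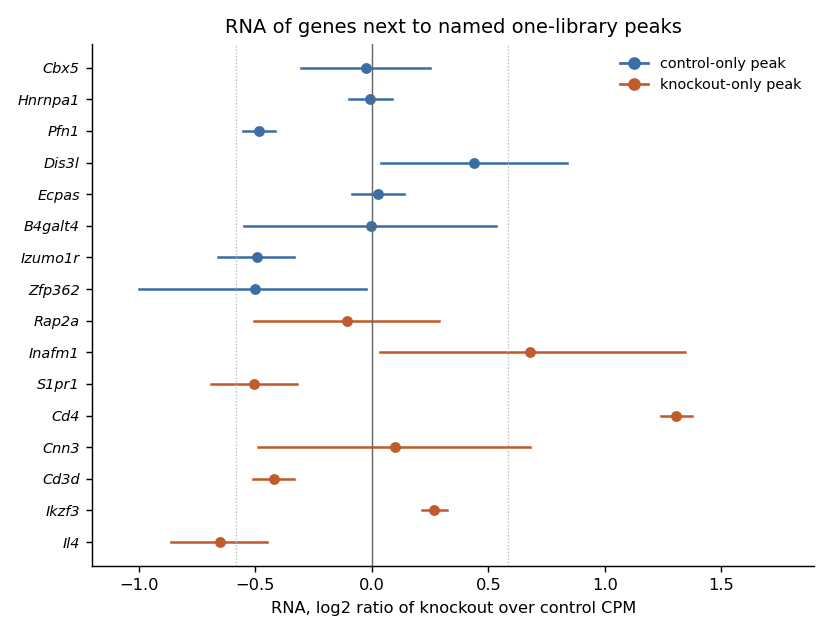
RNA log2 ratio of knockout over control (x axis) for 16 genes next to named control-only (blue) or knockout-only peaks (orange), in 1 colour also where a gene has both; points are ratios of CPM over all kept nuclei and bars exact 95% counting intervals. Dotted lines mark 1.5-fold: Cd4 (1.31) and Inafm1 (0.68) lie beyond them on the right and Il4 (-0.65) on the left, while Cbx5, Hnrnpa1, Ecpas and Rap2a lie near 0.

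At the targeted gene, Zfp362 RNA was 8.99 CPM (97 UMIs) in the control library and 6.32 CPM (59 UMIs) in that of the knockout (log2 ratio -0.50, -1.001 to -0.03). In Cd3-positive nuclei the ratio was -0.42 (-0.97 to 0.11). The labels do not say which exons are floxed, so the count over the whole gene does not check the deletion. From 10 kb before to 10 kb after the gene the control table held 12 peaks, 3 of them control-only, and that of the knockout held 8, none knockout-only.

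The 3 control-only peaks of the Zfp362 locus were unlike one another. The one over an exon (chr4:128787022-128787818, 120 fragments) lay 18227 to 19024 bases into the gene and was at 10.2 peak CPM in Cd3-positive and 2.85 in Cd3-negative nuclei, a log2 ratio of 1.82 (1.06 to 2.69). A weak intron peak further in (chr4:128779579-128780553) had 20 fragments. The last lay upstream of the gene (chr4:128806742-128807328, 201 fragments), 113 bases from the shared promoter peak, at 10.8 and 13.6 peak CPM.

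Shared peaks beside the control-only exon peak differed between libraries in Cd3-positive nuclei. The peak centred 20873.5 bases into the gene was at 14.6 (control) and 4.77 peak CPM (knockout) in Cd3-positive nuclei, a log2 ratio of -1.61 (-2.13 to -1.23). In Cd3-negative nuclei it had 14.6 and 10.9, a ratio of -0.42 (-1.004 to 0.05). The peak centred at 17493 bases had 5.73 and 2.76 in Cd3-positive nuclei (-1.05, -1.71 to -0.44) and 7.45 and 7.04 in Cd3-negative nuclei (-0.08, -0.75 to 0.64). At the promoter the values were 31.2 and 30.3 in Cd3-positive nuclei (-0.04, -0.26 to 0.16). Further from the exon peak, at 12059 bases, 2 control peaks of 623 and 323 bases were summed and set against a knockout peak of 732 bases. The ratio there, not corrected for the bases covered, was -0.68 (-1.48 to 0.06) in Cd3-positive and -1.18 (-2.29 to -0.20) in Cd3-negative nuclei, from 12 to 36 fragments each. Before the gene, at -5553.5 bases, it was -0.26 (-0.47 to -0.03) in Cd3-positive nuclei. How open the inner stretch is and how much of its DNA remains cannot be told apart in a floxed gene.

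The Cd4 gene held 2 knockout-only peaks and 1 control-only peak. One knockout-only peak (chr6:124883056-124883980) had 769 fragments, lay 4241 to 5166 bases into the gene, and was at 50.1 peak CPM in Cd3-positive and 22.8 in Cd3-negative nuclei, a log2 ratio of 1.13 (0.83 to 1.42). The other (chr6:124879727-124880599) had 338 fragments, with 21.1 and 11.6. The control-only peak between them (chr6:124881819-124882755) had 70 fragments and leaned the other way, with 3.12 and 6.25 peak CPM, a ratio of -1.002 (-1.76 to -0.32).

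Shared peaks at the start of Cd4 were also higher in the knockout library. The promoter peak was at 8.45 (control) and 49.3 peak CPM (knockout) in Cd3-positive nuclei (log2 2.54, 2.08 to 2.71), and the intron peak centred 2873 bases into the gene at 32.5 and 174 (2.42, 2.24 to 2.58). In Cd3-negative nuclei, too, both were higher in the knockout: 5.61 and 21.6 at the promoter (1.93, 1.35 to 2.55), and 18.2 and 76.1 in the intron (2.06, 1.75 to 2.40). Peaks centred 24332 to 30994.5 bases from the start, beyond the gene's end, differed by log2 ratios of -0.33 to 0.39 over both classes. The one before the start, at -10127 bases, had -0.13 in Cd3-positive and 0.56 in Cd3-negative nuclei. Cd4 RNA was 258 CPM (control) and 638 (knockout), a log2 ratio of 1.31 (1.24 to 1.37). CD4cre carries Cd4 regulatory sequence and is present in the knockout alone, so counts from the transgene and from the Cd4 gene itself cannot be told apart here.

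**Figure D5:**
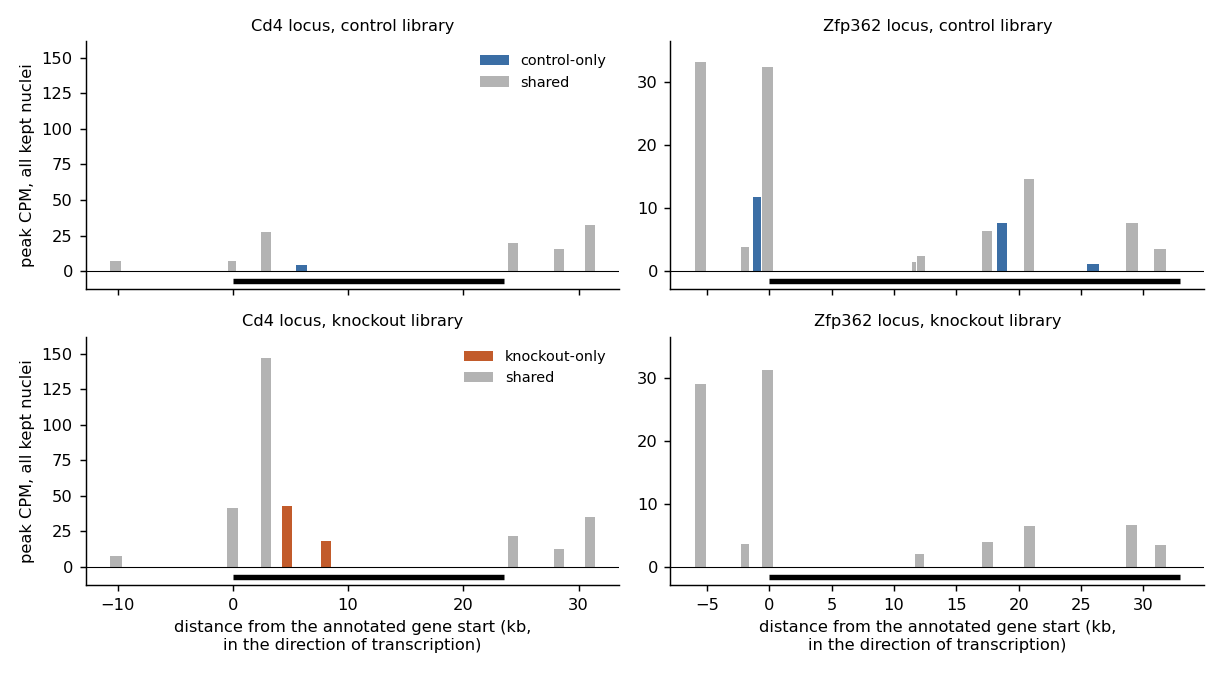
Peaks of the control (top) and knockout library (bottom) at Cd4 (left) and Zfp362 (right), as peak CPM over all kept nuclei (y axis) by distance from the gene start in kb (x axis); bar width is peak width, grey bars are shared, coloured bars one-library, and the black line is the gene. At Cd4 the knockout-only bars (42.5 and 18.5 peak CPM) stand next to shared intron and promoter bars of 147 and 41.6; at Zfp362 the 3 control-only bars have no counterpart below.

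Gene lists were set beside the members, most of them of T-cell biology, with others of innate lymphoid cells and of other cell types. Of 190 genes in all lists, 95 (50%) had a control-only peak inside or within 10 kb and 109 (57.4%) a knockout-only peak, and 58 had both. Over genes with at least 50 UMIs the shares were 38.1% and 41.8%, and over all genes 23.9% and 27.8%. The T-cell receptor signalling list had the highest shares, 17 and 18 of 20 genes. Its named members were Cd4 and, among control-only peaks, the promoter of Cd247, the zeta signalling chain (180 fragments; 14.3 peak CPM in Cd3-positive and 5.15 in Cd3-negative nuclei, log2 1.46, 0.83 to 2.00), and a promoter peak of the transcription factor Nfatc2 (198 fragments, 10.5 and 10.6). Cd247 RNA was 344 CPM (control) and 325 (knockout).

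Lineage genes of helper T cells came next. Near the 16 genes of the Th17 list, control-only peaks stood at 13 (81.25%) and knockout-only at 8 (50%). The backgrounds were 38.1% and 41.8% of genes with at least 50 UMIs. The strongest was a control-only peak at the start of Maf, a regulator of Il10 and Il17 programs (368 fragments, 19.7 and 17.2 peak CPM), 96 bases from a knockout peak of 912 fragments, with Maf RNA at 575 and 535 CPM. The knockout-only peak at a start of Runx1 (237 fragments) was 39 bases from a control peak. At Ahr, the aryl hydrocarbon receptor gene, an intron held a knockout-only peak of 101 fragments. The Th1 list had 8 and 7 of 16 (50% and 43.75%), near those backgrounds. Hlx, a homeobox gene, had a control-only promoter peak of 269 fragments though its RNA was 3 UMIs in each library. Upstream of Tbx21, which encodes T-bet, were knockout-only peaks of 78 and 51 fragments, with RNA at 64.9 and 78.7 CPM.

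Factors and receptors of other helper and regulatory lineages had members of the same modest size. The Th2 list had 4 and 5 of 12 genes (33.3% and 41.7%). The Treg list had 10 and 12 of 18 (55.6% and 66.7%), and the Tfh list 7 and 6 of 12 (58.3% and 50%). The backgrounds were 38.1% and 41.8% of genes with at least 50 UMIs. Gata3 had a knockout-only intron peak (123 fragments), Il4ra a control-only one (84), Ctla4 a knockout-only one (120) and Bcl6 a control-only one (210). At Tox, a factor of exhausted and innate lymphoid cells, the start held a control-only peak of 362 fragments, 64 bases from a knockout peak, and introns held knockout-only peaks of 136 and 78; Tox RNA was 2427 and 2399 CPM. Among C2H2 factors, 10 and 9 of 16 genes (62.5% and 56.25%) had one. Knockout-only peaks lay near the start (171 fragments) and in an intron (114) of Bcl11b. The intron one was at 7.94 peak CPM in Cd3-positive and 2.77 in Cd3-negative nuclei.

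Cytokine genes had weak members. Of 18 inflammatory cytokine genes, 6 (33.3%) had a control-only and 4 (22.2%) a knockout-only peak. The backgrounds were 38.1% and 41.8% of genes with at least 50 UMIs. A control-only peak covered the Il10 start (82 fragments, 5.38 and 3.13 peak CPM), and Il10 RNA was 219 CPM (control) and 197 (knockout). Just outside Il22, a cytokine of type 3 innate lymphoid cells and Th17 cells, a control-only peak of 56 fragments was at 1.81 and 6.16 peak CPM (log2 -1.76, -2.84 to -1.10). Il22 RNA had the same order in both libraries: 569.8 CPM in Cd3-positive and 2416 in Cd3-negative control nuclei, and 865 and 2334 in the knockout. The knockout-only peak over the Il4 promoter had 45 fragments, and Il4 RNA was lower in the knockout library, at 51.3 and 32.6 CPM (log2 -0.65, -0.86 to -0.45).

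In a pair of lists, singled out after the counts were seen, knockout-only peaks outnumbered control-only ones by the widest margins. Of 16 genes of activation and exhaustion, 12 had a knockout-only and 4 a control-only peak within 10 kb, where 41.8% and 38.1% of genes with at least 50 UMIs had one. Within 50 kb the counts were 15 and 12, where 70.1% and 65.0% of genes with at least 50 UMIs had one, so the contrast rests on the distance. The 10 with a knockout-only peak alone within 10 kb were Fos, Fosb, Jun, Junb, Egr1, Egr2, Nr4a3, Dusp1, Havcr2 and Pdcd1, mostly immediate-early genes that are switched on within minutes of stimulation. Within 50 kb only Fosb, Pdcd1 and Dusp1 had a knockout-only peak alone. Close to the end of Fos the knockout-only peak had 270 fragments, with 11.3 and 24.9 peak CPM (log2 -1.14, -1.47 to -0.76). The one near Junb, in an exon of Prdx2, had 288. Of the 16 genes of this list, all measured in RNA, none was past 1.5-fold higher, where 3.07% of all genes were, and none lower, where 2.59% were. Over all kept nuclei Fos was at 867.5 and 837 CPM, Junb at 4139 and 4044, and Egr1 at 156 and 149. The order differed by class. In Cd3-positive nuclei Fos was at 577 and 640 (log2 0.15, 0.09 to 0.21) and Egr1 at 98.9 and 113 (0.19, 0.04 to 0.33). Junb there was at 3604 and 3635. In Cd3-negative nuclei Fos was at 1477 and 1458, Egr1 at 275 and 265, and Junb at 5262 and 5333.

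Of 12 gut-homing and retention genes, 10 had a knockout-only and 4 a control-only peak within 10 kb, beside the same 41.8% and 38.1%. Within 50 kb they were 12 and 9, beside 70.1% and 65.0%. S1pr1, the receptor that draws lymphocytes out of tissue, had both: the control-only exon peak above and a knockout-only peak over its promoter, shared with the start of Gm9889 (chr3:115714904-115715716, 463 fragments), at 19.3 and 41.1 peak CPM (log2 -1.09, -1.32 to -0.78). The 2 thus leaned to opposite classes. S1pr1 RNA was 59.6 CPM (control) and 42.0 (knockout), a log2 ratio of -0.50 (-0.69 to -0.32). In the same list, 2 of 12 genes (16.7%) were past 1.5-fold lower in the knockout, beside 2.59% of all genes. None was past 1.5-fold higher, beside 3.07%. The lower ones were S1pr4 at 19.6 and 11.5 CPM (-0.77, -1.12 to -0.43), and Gpr15 from 36 and 19 UMIs (-0.70, -1.60 to 0.13). The Gpr15 interval includes 0. Cd69, which opposes S1pr1, had a control-only peak of 114 fragments beyond the gene, at 8.80 and 4.05 peak CPM.

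The remaining lists were those of innate lymphoid, quiescence, cytotoxic and other-cell-type genes. Their shares, control-only then knockout-only, were 50% and 65% for innate lymphoid, 83.3% in both for quiescence, and 25% and 33.3% for cytotoxic genes. The backgrounds were 38.1% and 41.8% of genes with at least 50 UMIs. Innate lymphoid genes had 10 and 13 of 20, among them a control-only promoter peak of Cnr2 (2.72 and 7.26 peak CPM) and a knockout-only exon peak of Id2 (199 fragments, 11.0 and 10.1). Quiescence genes had 10 of 12 in both sets, with a knockout-only intron peak of Tcf7 (198 fragments). Cytotoxic genes had 3 and 4 of 12. Eomes, a T-box factor, had a knockout-only peak of 41 fragments 1241 bases from the gene, while its RNA was 11.4 CPM (control) and 2.36 (knockout), a log2 ratio of -2.25 (-3.00 to -1.61). Genes of other cell types had 4 and 9 of 21. Only 8 of these 21 had at least 50 UMIs, so all genes, at 23.9% and 27.8%, are the closer background. The control-only share lay below it and the knockout-only share above it. Among the sites near these 21 genes were introns of Pecam1 (control-only peaks of 54 and 48 fragments, knockout-only of 82). Another was near the start of Pdgfra (knockout-only, 54 fragments). Pecam1 was listed as endothelial, but its RNA was 144 CPM (control) and 179 (knockout) in Cd3-positive nuclei. Over all lists, 4 of 173 measured genes (2.31%) were past 1.5-fold higher in RNA and 10 (5.78%) lower, beside 3.07% and 2.59% of all genes, with a median log2 ratio of -0.03. The 4 and 10 are spread over lists, with at most 2 in either direction in any one.

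Across all genes, RNA near one-library peaks differed little between libraries. Of 2075 measured genes within 10 kb of control-only peaks and of no knockout-only peak, the median log2 ratio was -0.02 (-0.04 to -0.01), with 67 (3.23%) past 1.5-fold higher and 59 (2.84%) lower. This median turned to 0.010 when genes with 1 UMI were admitted. Of 2510 genes near knockout-only peaks alone, the median was -0.0024 (-0.01 to 0.01), with 85 (3.39%) higher and 59 (2.35%) lower. The 2346 genes near both sets had a median of 0.04, with 69 (2.94%) higher and 30 (1.28%) lower. The 4681 near neither had -0.04, with 2.88% higher and 3.27% lower. The backgrounds over all 11612 genes are the 3.07% and 2.59% given above, and the median of all genes was -0.01. Genes with a start within 1 kb had larger shares in both directions and for both sets: 21 of 365 higher (5.75%) and 12 lower (3.29%) at control-only peaks, and 26 of 374 higher (6.95%) and 13 lower (3.48%) at knockout-only peaks. For control-only peaks at a start, the share higher in the knockout, the library without the peak, was thus the larger.

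Shared regions next to one-library peaks were nearly level between the libraries. Those within 10 kb of control-only peaks alone had a median log2 ratio of knockout over control of -0.0023, with 305 of 11637 (2.62%) past 1.5-fold higher and 305 (2.62%) lower. Over all regions the shares were 4.06% and 2.23%. Those near knockout-only peaks alone had a median of 0.0028, with 375 of 11623 (3.23%) higher and 288 (2.48%) lower. The 3726 near both sets had a median of -0.02, with 2.47% higher and 2.58% lower. The 40638 near neither had a median of 0.03, with 4.85% higher and 2.01% lower, so higher regions were less frequent near either set. These regions come from the same peak calls as the rule and are given as a description.

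Promoter windows inside one-library peaks were poorer in CpG than those inside shared peaks. The comparison was not matched for peak strength. Of 32817 RefSeq windows, 232 lay wholly inside control-only, 334 inside knockout-only and 11703 inside shared peaks of both libraries. Median GC content was 56.7%, 56.5% and 62.0%, against 52.7% over all windows. The median ratio of observed to expected CpG was 0.48, 0.48 and 0.79, against 0.38. SP/KLF matches, frequent in CpG islands, occurred in 22.0% and 19.8% of one-library windows, 35.6% of shared and 17.6% of all windows. AP-1 matches occurred in 12.9% of control-only windows (exact binomial 95% interval 8.90 to 17.9), 7.78% of knockout-only, 5.05% of shared and 7.81% of all windows. ETS matches were about as frequent in each, at 14.7%, 14.4%, 13.1% and 13.3%.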

How the data were processed

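The 2 libraries held RNA and chromatin counts of the same nuclei. Per the file headers and the submitters' processing notes, the authors used Cell Ranger ARC 2.0.1 with mm10; the deposited values are whole counts per gene (UMIs) and per peak, with a peak table for each library. Peak counts were even in 91.7% and 90.7% of entries, so fragments were taken as the count divided by 2, rounded up. Nuclei below 500 UMIs or 300 genes, or above 10% mitochondrial UMIs, were left out; 47 control and 45 knockout barcodes fell to this filter. No doublet caller was used; an alternative left out nuclei above 2 times the median UMI count. The kept nuclei held 10788249 and 9336000 UMIs and 31352373 and 34418274 peak counts.

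Overlaps, log2 ratios (pseudocount 0.5), exact conditional, binomial and order-statistic 95% intervals and annotation were computed in Python (numpy, pandas and scipy) and tested on simulated data. Intervals were computed on fragments and ratios on counts, so a ratio can sit off the middle of its interval. Genes were those of GENCODE vM21, to which 32158 of 32285 gene rows matched by ID; RNA ratios required 50 UMIs over both libraries. Joint expression clusters (Leiden) gave an alternative to the Cd3 classes. With 1 library per genotype no test was made. Peak sequence came from RefSeq promoter windows alone, in place of the planned windows around peak centres.

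Named peaks, not on chromosome 18, were the 10 with most counts per set, the 5 with the highest and the 5 with the lowest class ratio, all within 10 kb of Zfp362 or Cd4, up to 2 per gene list and set, and the 5 genes holding most; exceptions are stated. The members and lists were chosen with earlier results of these data known.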

Additional observations from a re-analysis of the deposited data

How the results depend on the processing

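Of 78 values under alternative settings, 44 stayed within their error or within 1.5 times, 33 moved and 1 changed sign. Requiring 100 fragments left 327 control-only and 393 knockout-only peaks, with median widths of 745 and 753 bases; requiring no peak of the other library within 500 bases gave widths of 867 and 870. The log2 ratio of Cd3-positive over Cd3-negative nuclei over a whole set stayed below 0 under the settings that changed the classes or the nuclei; over the control-only peaks of 100 fragments or more it was 0.030. For control-only peaks it was -0.035 at 2 Cd3 UMIs, -0.080 in nuclei with 1500 UMIs, -0.12 with innate lymphoid marker UMIs, -0.15 by joint clusters and -0.12 without nuclei of high UMIs. For knockout-only peaks the last 4 of these settings gave -0.12, -0.16, -0.20 and -0.12. Peaks past 2-fold numbered 56 and 36 (control-only, Cd3-positive and Cd3-negative) and 45 and 59 (knockout-only) by joint clusters. Without nuclei of high UMIs, 12 control-only peaks were higher in Cd3-positive nuclei, and 4 and 15 knockout-only peaks in the 2 classes; at 2 Cd3 UMIs, 16 knockout-only peaks were higher in Cd3-positive nuclei. Within 2.5 kb of a start, 16.4% and 15.97% of the sets counted as promoter. The RNA median near control-only peaks turned from -0.024 to 0.010 when genes with 1 UMI were admitted; near knockout-only peaks it was -0.017 within 50 kb, 0.025 at 1 UMI and 0.018 without nuclei of high UMIs. Shared regions within 50 kb had medians of 0.014 and 0.027, and 0.0080 near knockout-only peaks without nuclei of high UMIs. Within 50 kb, 78.4% and 81.6% of list genes had a control-only or knockout-only peak, beside 65.0% and 70.1% of genes with at least 50 UMIs. The cause of these shifts was not tested, beyond fewer peaks, nuclei or genes entering by construction.

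No paired analysis was possible because there was 1 library per genotype. At a median of 22 or 23 fragments, a class ratio of a single weak peak was not resolved at this depth, and no count of such a peak in the other library was analysed here. Windows of 2000000 bases, and pairs within 300 bases, were chosen after seeing the data.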
